A study of Mus musculus with 9 samples.

Results

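Open chromatin at 10 genes of the Wnt and β-catenin pathway, namely Lef1, Tcf7, Axin2, Fzd4, Fzd6, Lrp5, Lrp6, Tspan12, Apcdd1 and Reck, was examined in brain endothelial cells (ECs) of mice with and without endothelial KLF4. The members were every peak whose deposited annotation names one of these genes, the annotation giving each peak to the gene with the nearest transcription start site (TSS). This gave 444 of the 253457 peaks in the 9 libraries. Peaks of any library that shared at least 1 bp were merged, and 115 of 92495 merged regions belonged to the 10 genes. All 10 genes, of 20035 genes with a peak in any library, had at least 3 such regions.

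The libraries were made by Omni-ATAC-seq, in which the enzyme Tn5 cuts accessible DNA and adds adapters to it, from nuclei of brain ECs of C57BL/6J mice, purified by flow sorting. The labels give young WT Cre (n = 2), young EC-K4KO (n = 3), old WT Cre (n = 2) and old EC-K4KO (n = 2). In EC-K4KO mice a floxed Klf4 was removed by a tamoxifen-inducible Cre under the VE-cadherin (Cdh5) promoter, which acts in endothelium of every organ, and WT Cre mice carried the same Cre with intact Klf4. Mice of both genotypes received tamoxifen. The labels give age only as young or old. Nothing in the labels says whether replicates came from separate animals, so the p-values measure the spread between these libraries, which may be technical. The name prefix of the libraries runs with age, so a batch and age cannot be told apart.

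Wnt ligands bind a Frizzled receptor and a co-receptor of the LDL-receptor-related family, which protects β-catenin from breakdown. β-Catenin then enters the nucleus and acts through DNA-bound TCF and LEF factors. In brain endothelium this pathway drives vessel growth into the brain and forms and maintains the blood-brain barrier.

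The peak lists differed in length with both age and genotype, from 6157 and 9598 peaks in young WT Cre mice to 45026 and 39079 in old EC-K4KO mice, so ranks within a list are given below beside plain counts. Read totals were not analysed here and the depth behind a peak is unknown. In such bulk lists, fewer cells with an open site and less signal per cell cannot be told apart. Of 10 endothelial genes such as Cdh5, Pecam1 and Cldn5, 6 to 9 had a promoter peak in each library. Of 5 genes each for pericytes and mural cells, microglia, astrocytes, oligodendrocytes and neurons, at most 2 had one. Summed over all their peaks, the 5 astrocyte genes had 0 to 4 peaks in young WT Cre, 8 to 13 in young EC-K4KO, 18 to 23 in old WT Cre and 32 in each old EC-K4KO library. The pericyte and mural genes had 0 to 1, 0 to 2, 2 to 6 and 6 to 11 peaks, against 23 to 26, 55 to 86, 95 to 123 and 124 to 138 for the endothelial genes in the same order of groups. With each list shortened to its 6157 strongest peaks, 5 to 7 endothelial genes and none of the other markers kept a promoter peak. Klf4 itself had a promoter peak in all 9 libraries, and the lists do not show the deleted exons, so its peaks do not check the genotype.

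Stretches of genome, read from GRCm38 on the strand of the gene, are shown for some of the sites on which the results below turn. Capitals mark matches, on either strand, to the TCF/LEF words, CTTTG followed by AA, AT, TA or TT, to the KLF pattern CCNCNCCC, which can overlap itself, and to the ETS word CCGGAAGT. The first is the promoter of Fzd4, the 250 bases before its start (chr7:89404105-89404354, plus strand), with 7 KLF matches. The merged region at the Fzd4 promoter had a peak in every library. The second is the promoter of Lrp6, the 250 bases before its start (chr6:134566966-134567215, minus strand), with 2 overlapping KLF matches. How many library peaks cover these promoter bases was not counted. The 300-base windows at the midpoints of the Fzd4 and Lrp6 promoter regions each held 0 KLF matches. The others are 300-base windows at the midpoints of distal regions. They lie in the first intron of Lrp5 (chr19:3668920-3669219, minus strand, 1 KLF match) and at -4174 bp from the start of Lef1 (chr3:131106074-131106373, plus strand, 1 TCF/LEF match).
Fzd4 promoter: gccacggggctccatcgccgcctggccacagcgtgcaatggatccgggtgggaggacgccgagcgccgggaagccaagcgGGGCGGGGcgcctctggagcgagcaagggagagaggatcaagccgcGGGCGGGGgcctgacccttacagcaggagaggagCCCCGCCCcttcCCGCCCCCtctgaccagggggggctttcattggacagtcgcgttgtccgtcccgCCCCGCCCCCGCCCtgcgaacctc
Lrp6 promoter: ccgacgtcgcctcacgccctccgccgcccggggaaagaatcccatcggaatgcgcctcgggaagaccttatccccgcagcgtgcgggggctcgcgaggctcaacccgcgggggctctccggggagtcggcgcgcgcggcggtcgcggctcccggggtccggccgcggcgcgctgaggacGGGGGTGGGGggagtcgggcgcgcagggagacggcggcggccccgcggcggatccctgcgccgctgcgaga
Lrp5 first intron: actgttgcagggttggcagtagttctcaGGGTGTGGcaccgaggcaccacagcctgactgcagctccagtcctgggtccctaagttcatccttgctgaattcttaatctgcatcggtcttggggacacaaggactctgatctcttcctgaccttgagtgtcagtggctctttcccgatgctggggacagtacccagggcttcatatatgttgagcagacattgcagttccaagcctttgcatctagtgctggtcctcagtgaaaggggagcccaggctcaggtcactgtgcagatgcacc
Lef1 upstream region: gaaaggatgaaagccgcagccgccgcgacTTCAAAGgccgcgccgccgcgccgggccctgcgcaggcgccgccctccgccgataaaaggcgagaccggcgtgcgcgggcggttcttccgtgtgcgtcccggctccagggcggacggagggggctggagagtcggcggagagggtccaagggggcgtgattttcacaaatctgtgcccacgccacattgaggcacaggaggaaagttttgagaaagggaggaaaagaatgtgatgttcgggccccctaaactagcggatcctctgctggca

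The promoters of Fzd4 and Lrp6 were rich in G and C (73.2% and 78.8%). A KLF match was found in the same 250 bases of 45.6% of 27025 RefSeq promoters, a TCF/LEF match in 14.9% and an ETS match in 2.93%. Of the 300-base windows at the midpoints of all 92495 regions, 21.7% held a TCF/LEF match, 31.4% a KLF match and 1.28% an ETS match. Of the 115 windows of the Wnt genes, 39 (33.9%) held a TCF/LEF match, 33 (28.7%) a KLF match and 1 (0.870%) an ETS match. TCF/LEF matches were found in 14 of 32 windows at Lef1, 6 of 14 at Apcdd1 and 5 of 15 at Axin2, and in 1 to 3 at each of the other genes. A match is a description of the letters and does not show that a factor binds.

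Peaks at the Wnt genes were more numerous in EC-K4KO than in WT Cre libraries at each age and far more numerous in old than in young mice. Young WT Cre libraries had 9 and 12 such peaks (10.5 ± 2.12, mean ± SD, n = 2) and young EC-K4KO libraries had 19, 34 and 46 (33.0 ± 13.5, n = 3). Old WT Cre libraries had 74 and 67 (70.5 ± 4.95, n = 2) and old EC-K4KO libraries had 93 and 90 (91.5 ± 2.12, n = 2). The groups did not overlap. Averaged over both ages, EC-K4KO libraries held 21.8 more peaks than WT Cre libraries, and averaged over both genotypes, old libraries held 59.3 more than young, against a within-group SD of 8.94.

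The whole lists were longer as well. Old WT Cre over young WT Cre gave a ratio of mean peak numbers of 4.85 for all peaks and 6.71 for those of the Wnt genes. For genotype the ratios were 3.26 for all peaks and 3.14 for Wnt peaks in young mice, and 1.10 and 1.30 in old mice. Old EC-K4KO over young WT Cre, which changes age and genotype together, gave 5.34 and 8.71. As a share of the list, the Wnt genes held 0.146% and 0.125% in young WT Cre, 0.0797%, 0.134% and 0.164% in young EC-K4KO, 0.169% and 0.206% in old WT Cre, and 0.207% and 0.230% in old EC-K4KO. The old libraries all lay above the young ones in this share, by a small margin over the highest young EC-K4KO library, and the 2 young groups overlapped. No p is given for these sums, since the genes were chosen as a list. These ratios and shares were not matched for peak class. Most Wnt peaks lay away from promoters. Over all genes, promoters held 55.4% and 47.0% of the peaks in young WT Cre and 18.8% and 25.2% in old WT Cre. Peaks away from promoters thus rose more than promoter peaks in the whole lists as well. Whether the Wnt genes differ from all genes within a class was not tested.

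**Figure D1:**
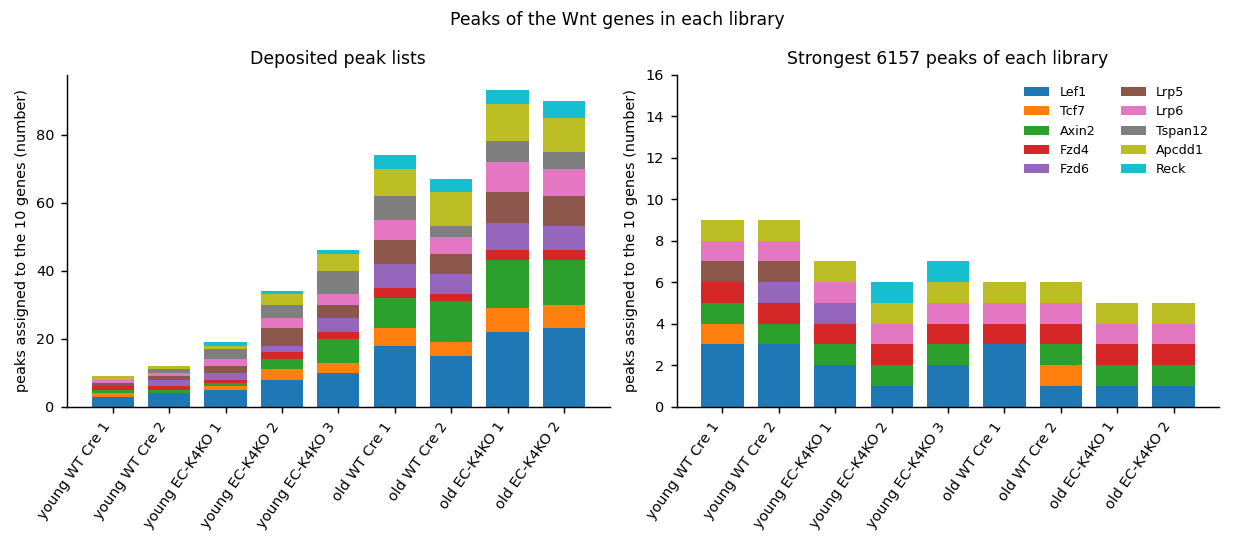
Number of peaks assigned to each of the 10 Wnt genes (stacked colours) in each of the 9 libraries, in the deposited lists and in lists shortened to equal length, that of the shortest (6157 peaks). The deposited totals run from 9 in young WT Cre to 93 in old EC-K4KO, and the totals at equal length from 9 to 5.

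The increase was absent among the strongest peaks. When every list was shortened to its 6157 peaks of highest -log10 p, so that all were as long as the shortest, the Wnt genes had 9 and 9 peaks in young WT Cre and 7, 6 and 7 in young EC-K4KO. Old WT Cre had 6 and 6 and old EC-K4KO 5 and 5. The ordering of the groups was thus the opposite of that in the deposited lists. Of the regions called gained further below, 2 of the 5 in young EC-K4KO over young WT Cre and none in the other 3 comparisons had a peak among the 6157 strongest of a library that gained them.

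Distal peaks made up most of the difference between groups, as they did in the whole lists. The deposited annotation classes a peak by its centre, and "promoter" here means its class promoter-TSS. Peaks of every other class are called distal, so the start regions of Axin2, Reck and Tspan12 count as distal. The Wnt genes had 1 and 3 promoter peaks in young WT Cre, 6, 7 and 7 in young EC-K4KO, 7 and 6 in old WT Cre, and 6 and 7 in old EC-K4KO. Their distal peaks numbered 8 and 9, then 13, 27 and 39, then 67 and 61, and 87 and 83 in the same order. Peaks of any class centred within 1000 bp of a start numbered 3 and 5, then 8, 10 and 10, then 9 and 8, and 9 and 9. Promoter peaks thus differed between young WT Cre and the other 3 groups, which overlapped, whereas distal peaks kept increasing in number over the 4 groups. Over all genes the promoter share was also lower in the other 3 groups than in young WT Cre, as given below. The rise in distal peaks was therefore not particular to the Wnt genes. Introns held 3 and 3, then 5, 13 and 20, then 34 and 28, and 46 and 43 of the distal peaks, and intergenic sequence held 4 and 5, then 5, 11 and 17, then 32 and 32, and 39 and 39. Not every such intron belongs to a Wnt gene. The Axin2 regions at -104262, -98411.5 and -74134 bp lay in an intron of Cep112.

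Promoters made up 11.1% and 25.0% of the Wnt peaks in young WT Cre, 31.6%, 20.6% and 15.2% in young EC-K4KO, 9.46% and 8.96% in old WT Cre, and 6.45% and 7.78% in old EC-K4KO. Over all genes the same shares were 55.4% and 47.0%, then 25.6%, 28.8% and 26.5%, then 18.8% and 25.2%, and 19.1% and 21.5%. The Wnt share was below that of all genes in 8 of 9 libraries, the exception being young EC-K4KO replicate 1. Between ages within genotype the Wnt promoter share differed by -12.1 percentage points, and between genotypes within age by 1.16 percentage points, against a within-group SD of 6.88.

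By these classes, promoter peaks of the Wnt genes were mostly lower in their lists than promoter peaks in general, and their distal peaks mostly higher than distal peaks in general. The distal class includes the start regions of Axin2, Reck and Tspan12, and ranks by distance to the start were not compared. Expressed as a percent of the list, with 0 the strongest, the median rank of their promoter peaks was 24.5 to 44.4 in the old libraries, against 15.4 to 20.1 for all promoter peaks. The median rank of their distal peaks was 42.1 to 52.6 in the old libraries, against 57.5 to 60.0 for all distal peaks. Of the young libraries, replicate 1 of EC-K4KO and replicate 2 of WT Cre had Wnt promoter peaks slightly stronger than promoter peaks in general, and replicate 1 of WT Cre had Wnt distal peaks weaker than distal peaks in general. The median width of the Wnt promoter peaks was 479 to 504 bp in the old libraries, against 565 to 640 bp over all promoters, and that of distal peaks was 362 to 407 bp against 328 to 392 bp.

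**Figure D2:**
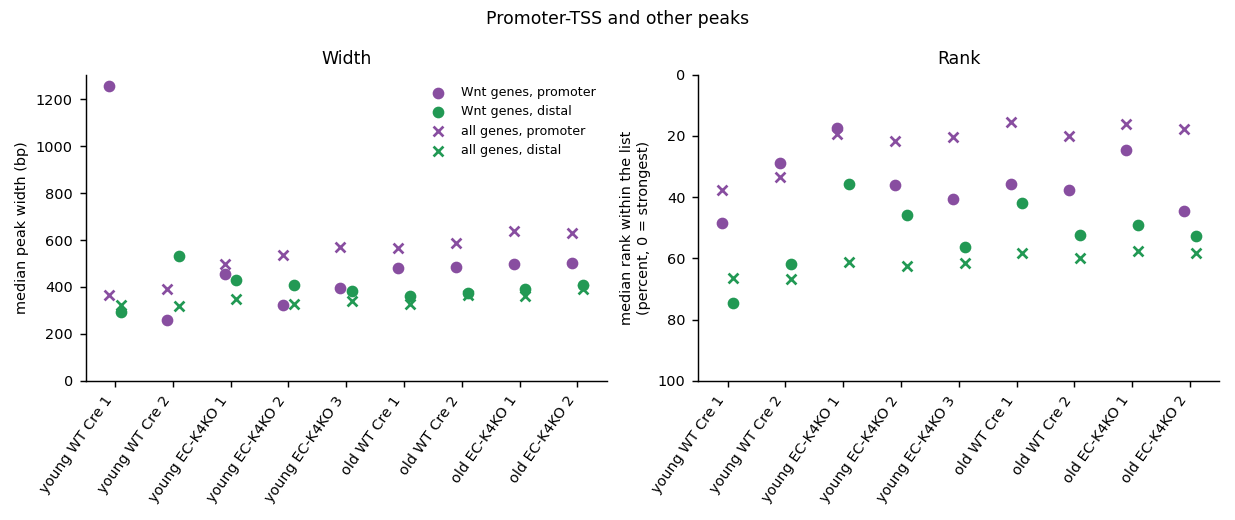
Median peak width in bp (left) and median rank within the list in percent, 0 being the strongest (right), for promoter-TSS and distal peaks of the Wnt genes (circles) and of all genes (crosses) in each library. In the old libraries the Wnt promoter peaks sit at 24.5 to 44.4 percent, below all promoters at 15.4 to 20.1 percent, and the single Wnt promoter peak of young WT Cre replicate 1 is 1256 bp wide.

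Most Wnt genes had more peaks than a typical gene, with Lef1 far ahead. The counts were not adjusted for gene length or for the distance to neighbouring genes. Lef1 spans 113886 bp and Fzd4 8780 bp. Mean peaks per gene were 1.05 for the 10 genes against 0.393 for all genes in young WT Cre, 3.30 against 1.28 in young EC-K4KO, 7.05 against 1.91 in old WT Cre and 9.15 against 2.10 in old EC-K4KO. Lef1 had 3 and 4 peaks in young WT Cre, 5, 8 and 10 in young EC-K4KO, 18 and 15 in old WT Cre, and 22 and 23 in old EC-K4KO. In old EC-K4KO only 0.105% of all genes had as many. The corresponding share was 1.05% for Axin2, 2.14% for Apcdd1, 3.15% for Lrp5, 3.59% for Lrp6, 4.88% for Fzd6, 5.64% for Tcf7, 8.82% for Tspan12, 12.3% for Reck and 23.2% for Fzd4.

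Of the 115 regions, 28 were found in 1 library only, 17 in at least 7 libraries and 6 in all 9. The 6 were the promoters of Fzd4 and Apcdd1, the start of Axin2, the region upstream of Lrp6 and the upstream regions of Lef1 at -4174 and -52902 bp. The 17 are described below by the role of the gene, each with its rank in the deposited list, where 1 is the strongest peak and a missing peak is stated. Lists differ in length, so these ranks describe each library and are not by themselves a difference between groups.

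**Figure D3:**
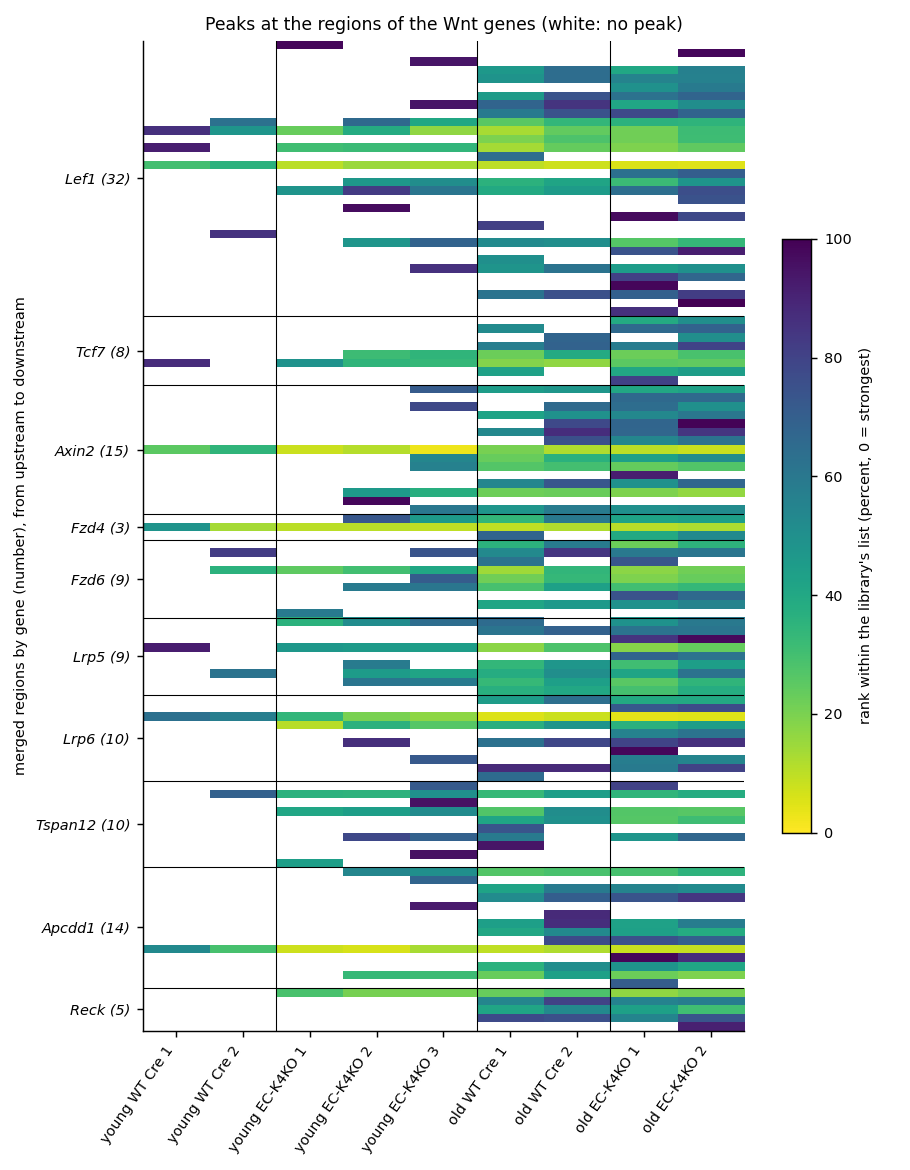
Every merged region of the 10 Wnt genes (one line each, ordered from upstream to downstream within a gene, number of regions in brackets) across the 9 libraries, coloured by rank within the list in percent, with 0 the strongest and white no peak. Regions shared by all libraries number 6, and the old libraries on the right fill most of the 32 lines of Lef1.

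Among the receptors, Fzd4, the receptor through which Norrin acts on retinal and brain vessels, had a promoter peak in every library and few other peaks. Its region (chr7:89403178-89404723) ranked 2988 and 1295 in young WT Cre, 2459, 2587 and 2641 in young EC-K4KO, 4236 and 3850 in old WT Cre, and 4830 and 4820 in old EC-K4KO. All 4 old libraries thus placed it lower than all 5 young ones. The peak measured 1256 and 860 bp, then 1353, 1346 and 1429 bp, then 1497 and 1413 bp, and 1516 and 1474 bp in the same order. The young WT Cre peaks were narrower than those of every other library. Promoter peaks of all genes were narrower there too, with medians of 366 and 390 bp against 499 to 640 bp in the other libraries. Relative to the library's median, log2 width at Fzd4 differed from young WT Cre by -0.26 in young EC-K4KO (limma adjusted p = 0.441). In old WT Cre it differed by -0.29 (adjusted p = 0.427). Fzd4 had 1 to 3 peaks per library.

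Fzd6, a Frizzled receptor better known for planar cell polarity, had a promoter region (chr15:39005852-39006625, centred at -172.5 bp) in 8 libraries. It was missing in young WT Cre replicate 1 and ranked 3422 in replicate 2. It ranked 5875, 7707 and 11352 in young EC-K4KO, 6343 and 11125 in old WT Cre, and 7796 and 8482 in old EC-K4KO. These 3 groups overlapped.

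Lrp5 and Lrp6 are the co-receptors that Wnt ligands bind together with a Frizzled. The Lrp5 site found in most libraries was not its promoter but a region of its first intron (chr19:3668556-3669583, 17439.5 bp past the start). It ranked 5668 in young WT Cre replicate 1 and was missing in replicate 2. It ranked 11193, 11510 and 12422 in young EC-K4KO, 7682 and 9132 in old WT Cre, and 8114 and 9218 in old EC-K4KO, so that every old library placed it higher than every young EC-K4KO library. A second region in the fifth intron (chr19:3645443-3646313, 40603 bp past the start) was found in 7 libraries, ranking 5932 in young WT Cre replicate 2, 11457 and 11667 in young EC-K4KO replicates 2 and 3, 16690 and 16482 in old WT Cre, and 18655 and 24329 in old EC-K4KO. The region at the Lrp5 start (chr19:3685893-3686991) had no peak in young WT Cre. It ranked 8577, 12978 and 18005 in young EC-K4KO. Old WT Cre replicate 1 ranked it 28550 and replicate 2 lacked it, and it ranked 22060 and 23213 in old EC-K4KO.

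The 2 shared regions of Lrp6 ran in opposite directions with age in EC-K4KO mice. In WT Cre mice both old libraries had the promoter peak that the young ones lacked. The promoter (chr6:134566796-134567568, -205 bp) had no peak in young WT Cre. It ranked 2521, 9121 and 7392 in young EC-K4KO, 16385 and 15683 in old WT Cre, and 16445 and 17355 in old EC-K4KO. The intergenic region centred -8503 bp from the start ranked 3889 and 5505 in young WT Cre, 8118, 5120 and 4766 in young EC-K4KO, 2340 and 2645 in old WT Cre, and 1888 and 1932 in old EC-K4KO. All old libraries placed this upstream region higher, and the promoter lower, than all young libraries with a peak there. As a percent of the list, which shrinks as lists lengthen, the upstream region stood at 63.2 and 57.4 in young WT Cre, 34.0, 20.2 and 17.0 in young EC-K4KO, 5.33 and 8.12 in old WT Cre, and 4.19 and 4.94 in old EC-K4KO. Among regions shared by all libraries the young groups gave no call there (-0.22 for EC-K4KO minus WT Cre, limma adjusted p = 0.678). Its deposited fold enrichment was 4.43 and 4.42, then 3.52, 8.17 and 8.39, then 9.43 and 10.1, and 11.7 and 11.4.

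Tspan12 and Reck are membrane proteins that help particular ligands to signal, Tspan12 with Norrin and Fzd4, and Reck with Wnt7a and Wnt7b. Neither had a peak of class promoter-TSS, because the peaks at their starts were centred downstream. The start region of Tspan12 (chr6:21850792-21852683, 762.5 bp) was missing in young WT Cre replicate 1 and ranked 6619 in replicate 2. It ranked 8537, 8906 and 13921 in young EC-K4KO, 14448 and 14291 in old WT Cre, and 15511 and 14957 in old EC-K4KO. Its width was 602 bp in young WT Cre, 1513, 990 and 904 bp in young EC-K4KO, 1823 and 1811 bp in old WT Cre, and 1874 and 1892 bp in old EC-K4KO. As a percent of the list its rank was 69.0 in young WT Cre, 35.8, 35.2 and 49.7 in young EC-K4KO, 32.9 and 43.9 in old WT Cre, and 34.4 and 38.3 in old EC-K4KO, so young EC-K4KO and the old groups overlapped.

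A region in the seventh intron of Tspan12 (chr6:21798524-21799874) had no peak in young WT Cre and ranked 9745, 11107 and 14505 in young EC-K4KO, 11924 and 16578 in old WT Cre, and 11968 and 10116 in old EC-K4KO. The start region of Reck (chr4:43875207-43876150, 147 bp, in the first exon) likewise had no peak in young WT Cre. It ranked 6856, 5154 and 5895 in young EC-K4KO, 10247 and 9030 in old WT Cre, and 7547 and 7948 in old EC-K4KO. As a percent of the list the Reck region stood at 28.7, 20.4 and 21.1 in young EC-K4KO, 23.3 and 27.7 in old WT Cre, and 16.8 and 20.3 in old EC-K4KO, so these groups overlapped.

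Lef1 and Tcf7 encode DNA-binding partners of β-catenin, and Lef1 is itself raised by Wnt signalling. Lef1 had 32 regions, spread on both sides of its start. Its strongest shared site lay -4174 bp from the start (chr3:131105822-131106625) and ranked 1832 and 3457 in young WT Cre, 2445, 3846 and 3649 in young EC-K4KO, 4373 and 2479 in old WT Cre, and 2495 and 1878 in old EC-K4KO. The groups overlapped there. The site at -52902 bp ranked 5295 and 4608, then 5544, 9742 and 4643, then 5662 and 7766, and 9738 and 12364 in the same order. A pair of further upstream regions were shared by at least 7 libraries. The one at -24712.5 bp (chr3:131084762-131086360) ranked 5636 in young WT Cre replicate 1 only, 7295, 8080 and 9527 in young EC-K4KO, 5855 and 7672 in old WT Cre, and 8690 and 9547 in old EC-K4KO. The one at -90703 bp (chr3:131019156-131019991) ranked 6020 in young WT Cre replicate 2, 16645 and 11317 in young EC-K4KO replicates 2 and 3, 11234 and 11052 in old WT Cre, and 16092 and 13624 in old EC-K4KO.

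Promoter peaks of Lef1 ranked below the upstream sites at -4174, -24712.5 and -52902 bp in every library that had one. A region centred 2053 bp past the first start and ending just before a second annotated start (chr3:131111900-131112677) had no peak in young WT Cre and ranked 11460, 20872 and 17092 in young EC-K4KO, 17232 and 14693 in old WT Cre, and 28673 and 29662 in old EC-K4KO. The region at the first start (chr3:131110188-131110535) was found in 6 libraries, with ranks of 11897 to 18860. For Tcf7, the region shared by most libraries lay in an intron, 9176 bp past the start (chr11:52273148-52273626). It ranked 5369 in young WT Cre replicate 1 and was missing in replicate 2. It ranked 11676, 8753 and 9299 in young EC-K4KO, 8222 and 5354 in old WT Cre, and 11359 and 9587 in old EC-K4KO. A peak of class promoter-TSS at Tcf7 was found in 2 libraries.

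Axin2 and Apcdd1 are both targets and inhibitors of the pathway, Axin2 as a scaffold of the complex that breaks down β-catenin and Apcdd1 at the cell surface. The start of Axin2 (chr11:108920201-108921362, centred at 232 bp in the first exon and intron) had a peak in every library. It ranked 1541 and 3306 in young WT Cre, 1916, 2819 and 680 in young EC-K4KO, 9000 and 3825 in old WT Cre, and 4621 and 3262 in old EC-K4KO. Its single best rank, 680, was also the best of any Wnt region in any library. The Apcdd1 promoter (-30 bp) ranked 3240 and 2785 in young WT Cre, 1798, 1543 and 3693 in young EC-K4KO, 4251 and 3877 in old WT Cre, and 3831 and 3458 in old EC-K4KO. At both genes most old libraries lay below most young ones, with some overlap. Axin2 had 1 and 1 peaks in young WT Cre, 1, 3 and 7 in young EC-K4KO, 9 and 12 in old WT Cre, and 14 and 13 in old EC-K4KO. Apcdd1 had 1 and 1, then 1, 3 and 5, then 8 and 10, and 11 and 10 in the same order.

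To compare strength free of list length, regions were ranked by -log10 p among the 4872 regions found in all 9 libraries, and the ranks, as normal scores, were tested with limma and adjusted by Benjamini-Hochberg over all 4872. Of the 6 Wnt regions, none changed with genotype within age. The smallest adjusted p was 0.511 and none had an unadjusted p under 0.05, against 0.739% of all regions called (36 regions, and 768 at an unadjusted p under 0.05). In young mice alone, EC-K4KO against WT Cre gave no call among the 6 (smallest adjusted p = 0.442, none at an unadjusted p under 0.05), against 4.15% of all regions (202 regions, 1164 unadjusted). The interaction of genotype and age called 0 of the 6 (smallest adjusted p = 0.586) and 0% of all regions, with 524 unadjusted. With groups of 2 or 3 libraries, these fits do not show that the genotypes were alike at these sites.

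With age within genotype, 2 of the 6 Wnt regions were called, 1 in each direction, against 20.9% of all regions (1017 regions, 476 up and 541 down). The median difference in score was -0.29 over the 6 and 0.03 over all regions. The region upstream of Lrp6 rose. Its ranks among the 4872 were 3698 and 4165 in young WT Cre (3932 ± 330.2, mean ± SD, n = 2), 4652, 3899 and 3770 in young EC-K4KO (4107 ± 476, n = 3), 2126 and 2388 in old WT Cre (2257 ± 185, n = 2), and 1764 and 1799 in old EC-K4KO (1782 ± 24.7, n = 2). Old and young libraries did not overlap, but the region was singled out by the test, so this adds nothing to it. How many of all regions separate in this way was not counted. The score differed by 1.21 (SE 0.21, limma adjusted p = 0.00474). The adjusted p was 0.00165 to 0.0326 over the 15 other settings that held the region. In EC-K4KO mice alone the difference between old and young was 1.44 (SE 0.29, adjusted p = 0.0205), the only one of the 6 called, against 6.57% of all regions. That call held in 12 of 16 other settings. It was lost without either old EC-K4KO library (highest adjusted p = 0.240), with the replicate block (0.0553) and with rank by fold enrichment (0.0602). In WT Cre mice alone the difference was 0.97 (SE 0.31, adjusted p = 0.0827).

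The Fzd4 promoter fell in rank with age. It stood at 2909 and 1272 in young WT Cre (2091 ± 1158, n = 2), 2325, 2393 and 2454 in young EC-K4KO (2391 ± 64.5, n = 3), 3278 and 3154 in old WT Cre (3216 ± 87.7, n = 2), and 3536 and 3535 in old EC-K4KO (3536 ± 0.71, n = 2). Old and young libraries did not overlap, which again adds nothing to the test that singled the region out. The score differed by -0.62 (SE 0.19, limma adjusted p = 0.0414), a value close to the threshold of 0.05. It was under 0.05 in 7 of 16 other settings (0.0045 to 0.137). Of the fits that leave out 1 library, the call held without young WT Cre replicate 1 (adjusted p = 0.0045) and was lost without any of the other 8 (0.0649 to 0.137).

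The other 4 shared regions did not pass the test for age. The start of Axin2 stood at 1537 and 2939, then 1856, 2579 and 679, then 4502 and 3140, and 3443 and 2741, and its score differed by -0.90 (SE 0.30, limma adjusted p = 0.0526, range 0.0173 to 0.206 over 15 other settings, 5 of them under 0.05). Of the 4 old libraries, 3 lay below all 5 young ones. The Apcdd1 promoter differed by -0.31 (adjusted p = 0.292), the Lef1 site at -52902 bp by -0.27 (adjusted p = 0.519) and the Lef1 site at -4174 bp by 0.14 (adjusted p = 0.652). Peak width, as log2 width relative to the library's median, gave no call among the 6 with genotype (smallest adjusted p = 0.478, against 0.287% of all regions) or with age (smallest adjusted p = 0.461, against 7.61%). Leaving out 1 library moved the number of width calls, among the 6 and over all regions, as given in the closing section.

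**Figure D4:**
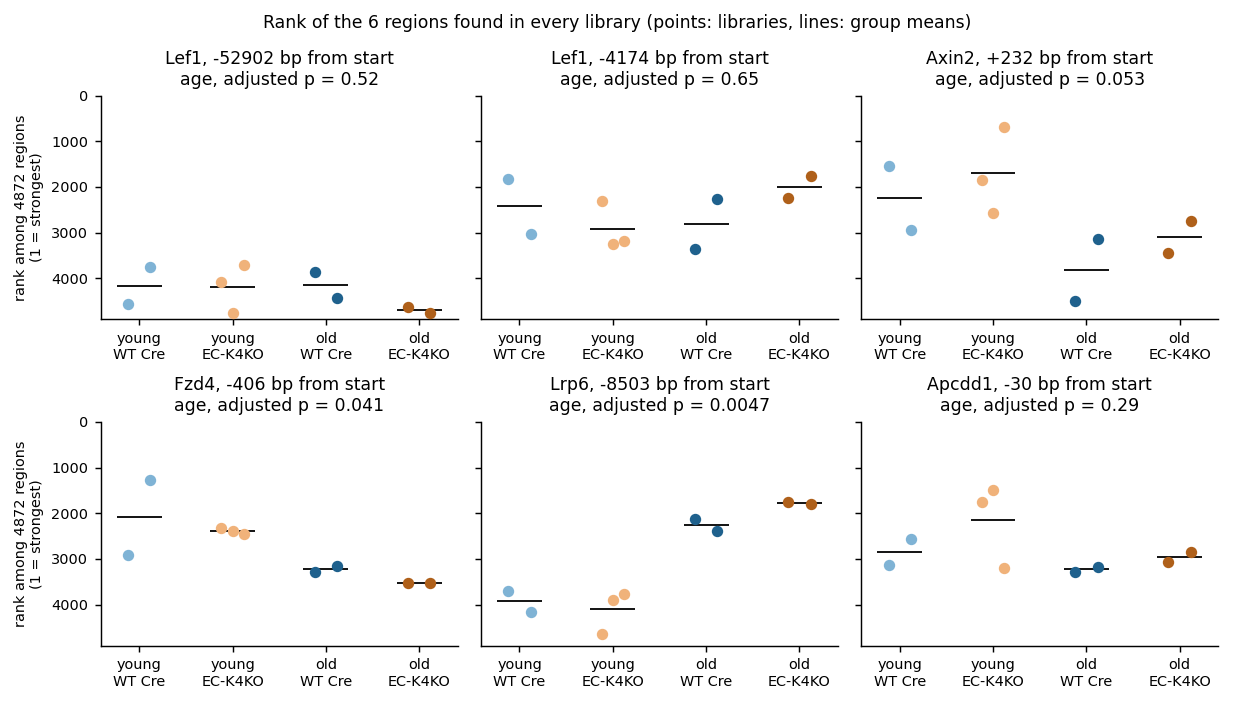
Rank among the 4872 regions found in all 9 libraries (1 the strongest, at the top) of the 6 Wnt regions found in every library, with points for libraries and a bar for each group mean. The region upstream of Lrp6 stands at 3698 to 4652 in the young libraries and at 1764 to 2388 in the old ones, and the Fzd4 promoter at 1272 to 2909 and 3154 to 3536.

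Because young WT Cre had the shortest lists, the requirement of a peak in every library removed 9 further Wnt regions that the other 3 groups shared. A fit of the 11595 regions found in all 7 other libraries, added after the data were seen, held 15 Wnt regions. In old against young EC-K4KO, 3 of the 15 were called, against 8.62% of all regions (999 regions, 456 up and 543 down). The region upstream of Lrp6 rose by 1.01 in score (SE 0.23, limma adjusted p = 0.0349) and the Lrp6 promoter fell by 1.44 (SE 0.35, adjusted p = 0.0406). The first-intron region of Lrp5 rose by 0.67 (SE 0.16, adjusted p = 0.0403).

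All 3 calls were close to the threshold and depended on single libraries. Left out 1 at a time, the 7 libraries kept the call in 3 of 7 fits for the region upstream of Lrp6 (adjusted p = 0.0353 to 0.254), in 2 of 7 for the Lrp6 promoter (0.0225 to 0.277) and in 0 of 7 for the Lrp5 intron (0.0590 to 0.290). The direction was the same in every one of these fits. The Fzd4 promoter differed by -0.53 (adjusted p = 0.0564). In old EC-K4KO against old WT Cre, limma called 0 of the 15 and 0% of all regions, with 1 of the 15 and 677 of all regions at an unadjusted p under 0.05. The 1 was the Lef1 region at 2053 bp (-1.17, adjusted p = 0.755).

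**Figure D5:**
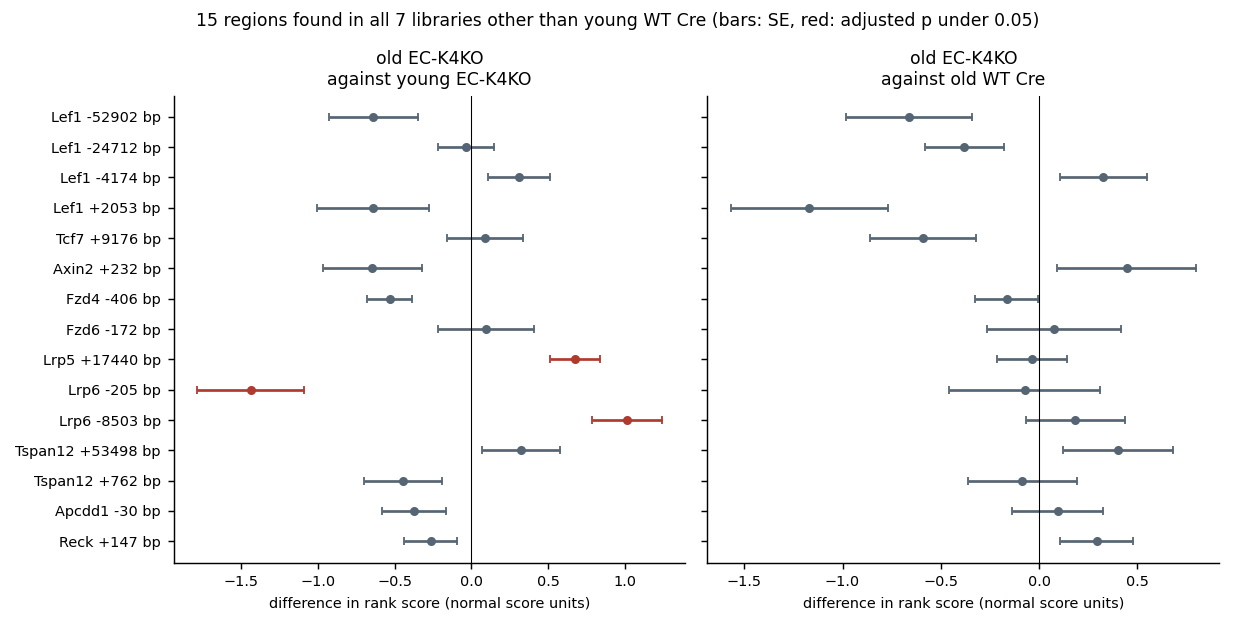
Difference in rank score (normal score units, points, with bars of 1 SE) for the 15 Wnt regions found in each of the 7 libraries that are not young WT Cre, for old against young EC-K4KO (left) and old EC-K4KO against old WT Cre (right), with red marking an adjusted p under 0.05. The 3 red points on the left are the region upstream of Lrp6 at 1.01, the Lrp5 intron at 0.67 and the Lrp6 promoter at -1.44, and no point on the right is red.

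Regions were also compared by presence, a region being called gained where every library of one group and none of the other had a peak. These 4 comparisons share groups pairwise, and each gives lists of unequal length. With age, the Wnt genes gained a larger share of their regions than all genes. In old against young WT Cre, 47 of 80 Wnt regions (58.8%) were gained, against 30.3% of all regions. In old against young EC-K4KO, 44 of 107 (41.1%) were gained, against 14.4%. With genotype, young EC-K4KO gained 5 of 52 Wnt regions (9.62%), against 7.69% of all, and old EC-K4KO gained 14 of 104 (13.5%) over old WT Cre, against 6.38%. None of the Wnt regions was lost in any of the 4, and few regions were lost at all. The lost share of all regions was 0.00204% in young EC-K4KO and 0.00188% in old WT Cre, each against young WT Cre, 0.572% in old EC-K4KO against old WT Cre and 0.0206% in old against young EC-K4KO. Leaving out young EC-K4KO replicate 1, the young count became 15 of 49 (30.6%), against 22.7% of all regions. Leaving out young WT Cre replicate 1, it became 8 of 52 (15.4%), against 8.84%.

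Regions seen in 1 library only cannot be gained and were rarer among the Wnt genes (28 of 115 regions, against 52987 of 92495). Among regions found in at least 2 libraries, a limit added after the data were seen, the gained shares were 65.3% for the Wnt genes against 47.5% for all regions in old against young WT Cre, 50.6% against 26.9% in old against young EC-K4KO, 16.1% against 11.3% in old EC-K4KO against old WT Cre, and 12.2% against 14.5% in young EC-K4KO against young WT Cre. In lists of this equal length no Wnt region was gained or lost in any of the 4 comparisons, against 3.32% of all regions gained in young EC-K4KO and 8.03% in old WT Cre, each over young WT Cre. With lists cut only to the shortest of the groups compared, 17 of 66 Wnt regions (25.8%) were gained in old against young EC-K4KO, against 5.97% of all, and 7 of 90 in old EC-K4KO against old WT Cre, against 5.04%. The same cut counted 1 of the 66 as lost, against 0.375% of all regions, and 2 of the 90, against 1.4%.

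The 5 regions gained in young EC-K4KO, a share near that of all regions, lay mostly at gene starts. How often gained regions of all genes lay at promoters was not counted in this or the other comparisons. The positions are therefore a description and not a trait of the Wnt genes. They were the start regions of Lrp5 and Reck, the Lrp6 promoter, the Lef1 region at 2053 bp and the seventh intron of Tspan12, all described above, and the best single rank was 2521, at the Lrp6 promoter. The 14 gained in old EC-K4KO over old WT Cre were all away from promoters, 5 of them at Lef1, 3 at Lrp6, 2 at Lrp5 and 1 each at Apcdd1, Axin2, Fzd6 and Tcf7. They were weak, the best rank being 17471, at an intergenic site -36078.5 bp from the start of Tcf7 (chr11:52318322-52318931). Those at Lef1 were centred at -154196, -2844.5, 10335.5, 37574 and 50062.5 bp, and those at Lrp6 at -25774.5, 7973.5 and 33826 bp.

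The comparisons of age in WT Cre and in EC-K4KO share no library. Of the Wnt regions gained with age, 25 were gained in both, which is 53.2% of the 47 in WT Cre and 56.8% of the 44 in EC-K4KO. Over all regions, 3520 were gained in both, which is 21.9% of those in WT Cre and 33.4% of those in EC-K4KO. The longer old lists enter both comparisons, and their part in this overlap was not tested. At Lef1, 6 regions were gained in both, centred at -173269, -164396, -123144, -95964, -45663 and 62012 bp. At Apcdd1, 5 were gained in both, at -66208, -53617, -20799.5, -15860 and 18481.5 bp. Those at Axin2 lay at -31101.5, -9807 and 41542.5 bp, and those at Reck at 9071, 19855 and 24013 bp, all in its introns. Fzd6, Lrp5 and Lrp6 had 2 each and Tcf7 and Tspan12 had 1 each, and Fzd4 had none.

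Of the 22 regions gained with age in WT Cre only, 3 held a promoter peak in old WT Cre, at both starts of Lef1 and at Lrp6. One more, at Tcf7, was of class promoter-TSS only in young EC-K4KO replicates 2 and 3. The best rank was 7411, at an intergenic site 60333.5 bp past the start of Axin2 (chr11:108980392-108981265). This site had no peak in young WT Cre or in young EC-K4KO replicate 1 and ranked 11585 and 10455 in the other young EC-K4KO libraries, 9759 and 7411 in old WT Cre, and 8707 and 6346 in old EC-K4KO. No region gained in old against young EC-K4KO held a promoter peak. In each young EC-K4KO library, 6 of the 10 genes already had a promoter peak.

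Of 60 other genes of the pathway, listed by role, 57 had a peak and 17 had a region, 20 regions in all, among the 4872. With age, 1 of the 20 was called higher and 3 lower (limma, threshold 0.05), a share near the 20.9% of all regions. With genotype within age, in young mice alone and for the interaction none of the 20 was called, against 0.739%, 4.15% and 0% of all regions. The promoter of Tcf7l2, a further TCF factor, fell by 0.99 (SE 0.15, adjusted p = 0.00311), with ranks among the 4872 of 2775 and 2883 in young WT Cre, 3946, 3529 and 3670 in young EC-K4KO, 4556 and 4676 in old WT Cre, and 4418 and 4331 in old EC-K4KO. Bcl9, a β-catenin co-activator, fell by 1.20 (SE 0.21, adjusted p = 0.00442) and Csnk1a1, a kinase that primes β-catenin for breakdown, fell by 0.60 (SE 0.19, adjusted p = 0.0479). Btrc, part of the ligase that marks β-catenin for breakdown, rose by 0.77 (SE 0.14, adjusted p = 0.00608), from 1473 to 1840 in the young libraries to 453 to 685 in the old. At each of these 4 the old and young libraries did not overlap, but they were named for passing the test, so this adds nothing to it. The median difference with age was -0.22 over the 20, against 0.03 over all regions.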

How the data were processed

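Omni-ATAC-seq peak lists of 9 libraries were used, grouped by the genotype and age in the labels. As the study's methods describe, the authors used TrimGalore for trimming, Bowtie2 for mapping to mm10, filters on duplicates and mapping quality, and MACS2 for broad peaks. The deposited peak names show 1 list called per library, without pooling. The submitters' processing notes also name Bowtie2, MACS2, mm10 and GRCm38. For each peak the deposited lists hold a fold enrichment, which is the ratio of its signal to the local background, and the authors' -log10 p and -log10 q. The score the authors deposited for a peak matched its -log10 q multiplied by 10, to within 1. The deposited annotation, in HOMER's form, gives the authors' gene name, class and distance to the nearest TSS in bp. All regions lay within the chromosomes of GRCm38. Read counts were not analysed here, so the authors' DiffBind test could not be rerun, and no interval for counting error is given.

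Peaks sharing at least 1 bp were merged. The ranks by -log10 p among the 4872 regions found in all 9 libraries were turned into normal scores. limma 3.58.1 (R 4.3.3) fitted 4 group means, with adjustment over all regions and a threshold of 0.05. Width was tested as log2 width minus the library's median. Other steps were run in Python 3.11.15 (scipy 1.17.1, pandas 2.3.3, numpy 2.4.6, matplotlib 3.10.9). On simulated data of 4872 regions with 200 planted for genotype within age, 96% of 2-fold and 100% of 4-fold changes in -log10 p were recovered. Of the calls, 14.0% were false, and none was called with nothing planted. The simulation gave every region and library the same spread and both ages the same change, so these shares do not give the power in the real lists. Sequences and motif matches were read from GRCm38, and RefSeq promoters from GRCm38.p6. Some sequences are not reported here.

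The named regions were the promoter region of each gene and those in at least 7 libraries, with regions called gained or lost added by gene and distance. Of other pathway genes, those with the smallest adjusted p under 0.05 were named. The members and lists were chosen with earlier results of these data known. The alternatives were lists shortened to the same length, stricter q, a cover of at least 50% of the region, rank by fold enrichment, log2 of -log10 p, a replicate block and leaving out each library.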

Additional observations from a re-analysis of the deposited data

How the results depend on the processing

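The direction and call of the region upstream of Lrp6 with age were the same in all 15 other settings. The Fzd4 promoter was lower with age in all 16 but under the threshold in 7. Rank by fold enrichment turned the age difference at Lef1 -52902 bp to 0.63 and at Lef1 -4174 bp to -0.30, and the genotype difference at the latter to -0.20. The genotype difference upstream of Lrp6 became -0.085 with log2 of -log10 p and -0.068 with the replicate block. Leaving out 1 library, it ran from -0.068 to 0.17, that at Lef1 -4174 bp from -0.066 to 0.23 (age -0.025 to 0.29) and that at Fzd4 from -0.35 to 0.045. None of these differences was called as reported. The cause of these changes was not tested.

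Counts over all regions moved most. For genotype within age (36), rank by fold enrichment gave 2, a cover of 50% 23, log2 of -log10 p 196, a mean-variance trend in limma 22 and the replicate block 0, and leaving out 1 library 0 to 405, the highest without young WT Cre replicates 1 (341) and 2 (405). In no setting was a Wnt region called for genotype rank. For young EC-K4KO against young WT Cre (202) the same settings gave 82, 111 and 482, the replicate block 0, and leave-outs 4 to 812. For age (1017) the cover gave 424 and leave-outs 269 to 1890. For the interaction (0) the cover gave 1 and leave-outs 0 to 89. Width with genotype (14) gave 0 with the cover and with the replicate block and 0 to 627 with leave-outs, and width with age (371) gave 42, 30 and 10 to 1277.

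Wnt regions called with age (2) were 1 with the cover, 4 with log2 of -log10 p, 1 with the replicate block and 1 to 3 with leave-outs. For old against young EC-K4KO (1) they were 0 with the cover, 0 with fold enrichment, 0 with the replicate block, 3 over the 7 libraries and 0 to 3 with leave-outs. In both contrasts the cover left the region upstream of Lrp6 untested, so its absence there is not a lost call. For width (0) leave-outs gave 0 to 3 with genotype and 0 to 3 with age, 3 only without young WT Cre replicate 2. In lists of equal length the difference in Wnt peaks was -1.67 with genotype and -2.33 with age. The promoter share differed by -23.3 with age when promoters were peaks within 1000 bp of a TSS. Gained Wnt regions were 0 in all 4 comparisons of lists of equal length, which held only 8 to 14 Wnt regions. In lists cut to the shortest they were 0, 0, 7 and 17, for young EC-K4KO, old WT Cre, old EC-K4KO over old WT Cre and old over young EC-K4KO. Leave-outs gave 5 to 15 for young EC-K4KO, against 8.84% to 22.7% of all regions.

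Deviations from the group mean were correlated between libraries of different groups. Those with the same number gave -0.0132 to 0.118 (median 0.0465, 12 pairs), and those with different numbers -0.118 to 0.0723 (median -0.0343, 18 pairs). In a group of 2 libraries the deviations mirror each other, so these values cannot decide whether the numbers pair the libraries. The main fits took no pairing, and the replicate block was the alternative. The mean-variance trend, the cut lists, the fits over 7 libraries and the presence counts without a library were chosen after seeing the data. Regions in fewer than 7 libraries have no test, and without read counts a peak missing from a short list cannot be told from a closed site.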
